A study of Mus musculus with 10 samples.

Results

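Xaf1, Idi2, Trim12c, Taf15, Cnot6l, Rbm45, Csn3, 2310057N15Rik, 1700020D05Rik and Ms4a4b were listed because their levels stood high on some single arrays and low on others. These 10 genes were taken from 18193 genes with a probe set of their own on the array, and they were read by 18 of 34945 such probe sets. The values that chose them are the levels described here, so these are given as a description. The limma fits near the end set the listed genes in the table of all probe sets and are no independent test of them.

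Arrays of 10 conditions were made, 1 for each. PSI-F grafts held rat islets, from Wistar donors of 12 weeks, and cultured skin fibroblasts of a nu/nu mouse in a scaffold of rat plasma, and PSI grafts held the islets and scaffold without fibroblasts. Both were placed under the skin, on the abdominal muscle, of male Swiss nu/nu mice of 6 weeks that had been made diabetic with streptozotocin, and were taken out on days 1, 3, 7 and 10. Diabetic was a subcutaneous biopsy of a streptozotocin mouse without a graft, and Control one of a healthy nu/nu mouse without a graft, both at day 0. All recipients lack a thymus and therefore most T cells, and the array carries mouse probes, so rat transcripts are seen where they bind these probes. The study killed 2 mice for each kind of graft and day and hybridized samples of the best RNA quality, and the sources at hand do not say whether an array held RNA of 1 mouse. The animal, the array and the condition therefore cannot be told apart.

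Nude mice have few T cells but keep NK cells, macrophages and the interferon response, a program by which most cells switch on antiviral genes within hours of a signal. Skin under which a graft lies also carries muscle, dermis and hair follicles, and the hair follicle makes keratins and keratin-associated proteins while it grows. A probe set is a group of short probes against one stretch of a transcript, often near its 3′ end. Several probe sets of a gene read different stretches or different transcript ends, so they can be set beside each other as separate readings of the gene.

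Levels are log2 values as deposited, on which a difference of 1 is 2-fold and one of 2 is 4-fold. Array medians were 2.82 to 2.94, and levels under them are near the array's background. Ins2, an insulin gene, was at 7.70 to 10.60 in the 8 grafts, against 3.13 in Diabetic and 2.27 in Control, while Gcg, the glucagon gene, was under the median of every array (0.82 to 1.54). Skeletal muscle markers had medians of 11.26 to 12.30 in the grafts, against 12.31 in Diabetic and 11.72 in Control, and dermal collagen and proteoglycan markers 9.79 to 11.48, against 9.80 in Diabetic and 9.61 in Control. Of 6 measured T cell markers, 2 lay at or under the array median everywhere. As each array read whole tissue, fewer cells of a type and less RNA per cell cannot be told apart.

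For each gene the 10 levels were put in order, and the largest gap between neighbours was taken from the probe set where it was widest. A gap of at least 2 was called a jump. Jumps were seen in 5 of the 10 listed genes, Idi2 (gap 4.08), Trim12c (2.81), Taf15 (2.71), 1700020D05Rik (2.05) and Rbm45 (2.01). Among all 18193 genes 166 had one, which is 0.912%, and nothing is read from the listed genes' higher share because they were listed for it. Just under the threshold lay 2310057N15Rik with a gap of 1.94. Ms4a4b had 1.72, Xaf1 1.69 and Cnot6l 1.36, and Csn3 had 0.61, which ranks 3657 among all genes. A gap of at least 1 was thus present in 9 of the 10, as in 7.11% of all genes. The median largest gap of all genes was 0.32.

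**Figure D1:**
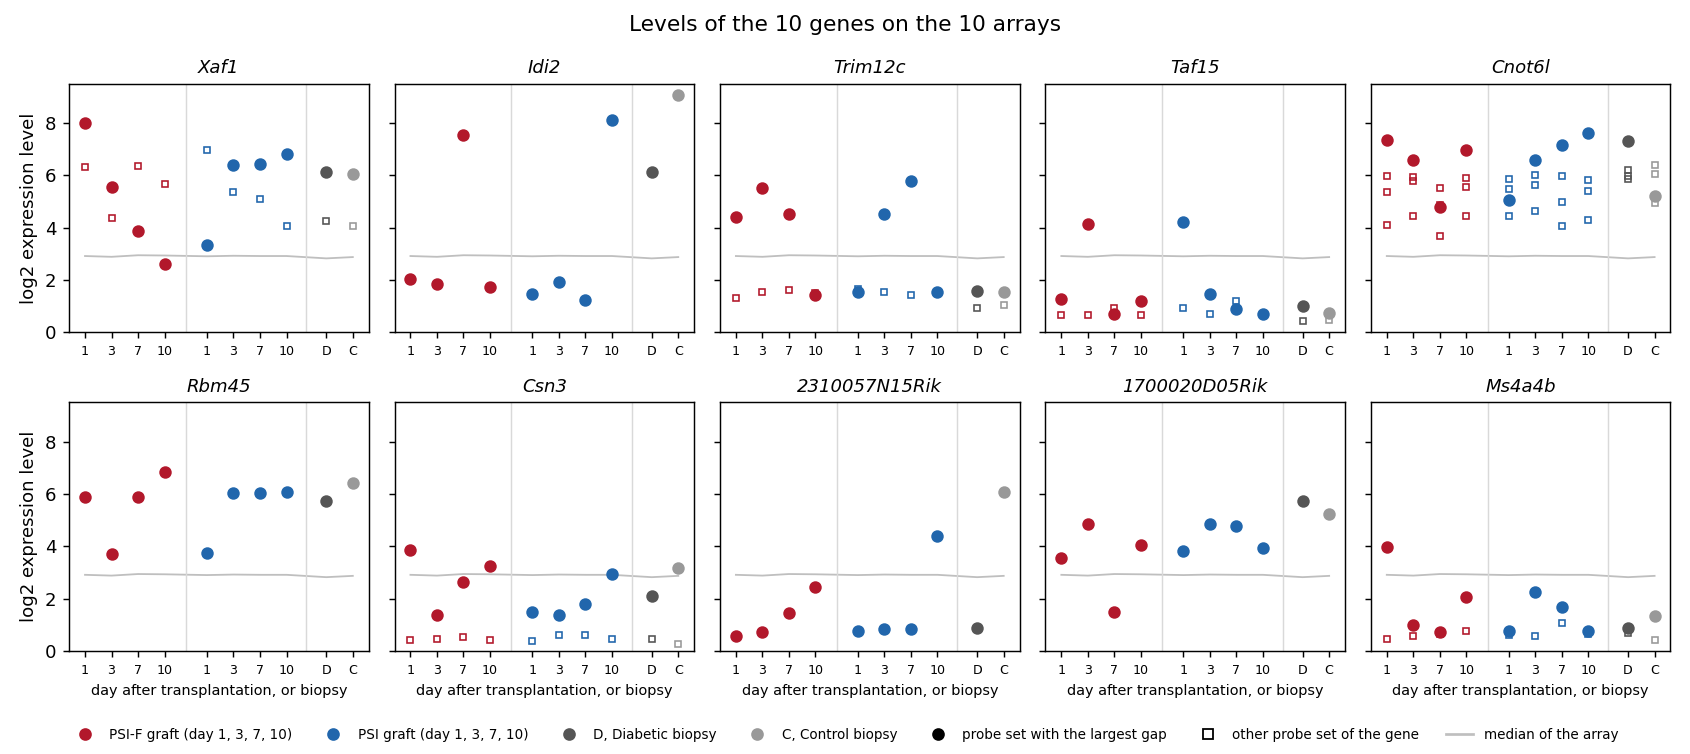
Levels (log2, vertical axis) of the 10 listed genes on the 10 arrays (horizontal axis; PSI-F days 1 to 10, PSI days 1 to 10, Diabetic, Control), 1 point for each array and therefore no error bars, with filled circles for the probe set with the largest gap, open squares for other probe sets and a grey line for the median of each array. In 8 of the genes the filled circles lie on both sides of the array median, while Cnot6l and Rbm45 stay above it on all 10 arrays.

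The widest gap belonged to Idi2, an isomerase of isoprenoid synthesis whose close relative Idi1 serves the cholesterol pathway. Idi2 was at 2.04, 1.83, 7.54 and 1.74 in the PSI-F grafts of days 1, 3, 7 and 10 and at 1.46, 1.91, 1.22 and 8.10 in the PSI grafts of the same days, against 6.13 in Diabetic and 9.05 in Control. It was high in 1 graft of each kind, on different days, and in both biopsies, and low in the other 6 grafts, with no level between 2.04 and 6.13. That gap is 17.0-fold and ranks 6 among all genes. On day 7 the PSI-F graft was 80.1-fold higher than the PSI graft (log2 difference 6.32), and on day 10 it was 82.0-fold lower (log2 difference -6.36).

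Idi2 has 1 probe set of its own, so a second reading of the gene was not at hand. Of its 6 nearest measured genes on chromosome 13, with 18 probe sets, none was parted between the same arrays by 1 or more. Idi1 itself varied over 1.89 and 2.40 in its 2 probe sets and was highest in Control (8.65 in the brighter one). Of 11 measured genes of isoprenoid and cholesterol synthesis, Idi2 was the 1 with a jump, and the list's median largest gap was 0.50, beside 0.32 over all genes. Gtpbp4, a GTPase of ribosome assembly with 1 RefSeq gene between it and Idi2, had a gap of 2.01 in 1 probe set, in which the PSI-F graft of day 10 was low (2.94) and the other arrays were between 4.95 and 6.51. Its other 2 probe sets did not show this, with 5.17 and 6.59 in that graft inside ranges of 4.45 to 5.96 and 6.38 to 7.43.

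The levels most like those of Idi2 over the 10 arrays were those of Lyg1, a lysozyme g-like gene (Pearson r = 0.85), Pla2g4d, a phospholipase A2 gene of the epidermis (0.85), and Dach1, a transcription cofactor (0.80). These were picked from all probe sets that varied by at least 2, the arrays share mice and tissue, and the r values describe the likeness only. Lyg1 was at 3.39 in the PSI-F graft of day 7, 4.91 in the PSI graft of day 10, 2.68 in Diabetic and 6.89 in Control, but also at 3.35 in the PSI-F graft of day 10, where Idi2 was low. In humans the Idi2 enzyme is known from skeletal muscle. The median difference PSI-F minus PSI of the 5 muscle markers was -0.10 on day 7 and 0.01 on day 10. The part of muscle in the levels of Idi2 was not tested.

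Among the genes tied to the interferon response, Xaf1 and Trim12c were listed. Xaf1 binds the apoptosis inhibitor XIAP and counters it. Its probe set with the widest gap (1443621_at) was at 8.0, 5.54, 3.85 and 2.59 in the PSI-F grafts of days 1, 3, 7 and 10 and at 3.35, 6.40, 6.43 and 6.81 in the PSI grafts, against 6.13 in Diabetic and 6.05 in Control. Levels were lower on each later day in PSI-F grafts and higher in PSI grafts, so that the difference PSI-F minus PSI was 4.65 on day 1 (25.2-fold higher), -0.86 on day 3, -2.58 on day 7 and -4.22 on day 10 (18.6-fold lower).

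The second probe set of Xaf1 (1443698_at) gave another picture. It was at 6.31, 4.36, 6.37 and 5.67 in the PSI-F grafts and at 6.98, 5.36, 5.09 and 4.04 in the PSI grafts, against 4.24 in Diabetic and 4.04 in Control. Here the difference PSI-F minus PSI was -0.67, -0.99, 1.29 and 1.63 on days 1, 3, 7 and 10, opposite in sign to the first probe set on days 1, 7 and 10. Of the arrays 7 stood above the gap of the first probe set and 3 below it. In the second, the lowest of these 7 was 2.95 under the highest of these 3 (margin -2.95), which is the whole range of that probe set.

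The median difference of the interferon genes had the sign of the second probe set on days 3, 7 and 10 and that of the first on days 1 and 3. Of 23 listed genes 20 were measured, and their median level was 7.39, 4.42, 6.11 and 5.13 in the PSI-F grafts and 6.87, 5.61, 5.07 and 4.66 in the PSI grafts, against 3.40 in Diabetic and 3.43 in Control. The median difference PSI-F minus PSI was 0.54, -1.27, 1.08 and 0.78 on days 1, 3, 7 and 10. At least 2-fold lower in PSI-F were 12 of the 20 genes on day 3, beside 1.87% of all genes. At least 2-fold higher were 11 on day 7 (0.956% of all genes) and 3 on day 10 (0.385%). On day 1 none of the 20 passed in either direction, beside 0.313% of all genes higher and 0.819% lower. On day 10 Zbp1, a sensor of nucleic acids, and Ifi204 were slightly negative, at -0.09 and -0.11. Ifit1, which blocks translation of viral RNA, was at 7.41 in the PSI-F graft of day 1, 6.52 in the PSI graft of day 1, 1.30 in Diabetic and 2.34 in Control. None of the 20 had a jump, although their median largest gap was 1.09. The genes nearest to Xaf1 on chromosome 11, 6 with 11 probe sets, had no gap above 0.65 and none was parted in the way of the first probe set.

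The order of the first probe set was not closely shared by any other gene. The nearest were Nr4a2, a nuclear receptor of early response (r = 0.59), the listed gene Cnot6l (0.54) and Otud1, a deubiquitinase (0.52).

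Trim12c belongs to a cluster of TRIM ubiquitin ligases on chromosome 7 around Trim5, Trim30 and Trim34, several of which are induced by interferon. Its promoter is shown because it holds a match to GAAANNGAAA, the core of the interferon-stimulated response element, which was searched on both strands as the single motif. The window runs from 250 bases before to 50 after the start and is read along the gene, on the minus strand of chr7:104353300-104353599 (RefSeq, GRCm38.p6). The capitals mark the match, which lies on the opposite strand and begins at base 222.

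Trim12c: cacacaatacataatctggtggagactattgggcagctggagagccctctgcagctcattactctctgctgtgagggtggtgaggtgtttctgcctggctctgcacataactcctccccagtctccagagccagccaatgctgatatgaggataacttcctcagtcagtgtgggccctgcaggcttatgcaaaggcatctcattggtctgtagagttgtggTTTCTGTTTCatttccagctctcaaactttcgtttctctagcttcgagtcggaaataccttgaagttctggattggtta

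Such a match was found in 2 of the 11 windows of 9 listed genes, the other being that of Taf15, and in 1131 of 32851 windows of all genes (3.44%). A match describes the letters and is not evidence of a bound site, and the table holds no window for Csn3. Xaf1 and Ms4a4b had none in their windows.

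Trim12c (1443858_at) was at 4.40, 5.50, 4.53 and 1.41 in the PSI-F grafts of days 1, 3, 7 and 10 and at 1.52, 4.53, 5.77 and 1.52 in the PSI grafts, against 1.58 in Diabetic and 1.52 in Control. In 5 grafts the level was 4.40 or more, and in the other 3 grafts and both biopsies it was 1.58 or less. PSI-F and PSI thus stood apart on day 1 (log2 difference 2.87, 7.33-fold), whereas on days 3 and 7 both kinds were high and on day 10 both were low. The gap of 2.81 is 7.03-fold. The other probe set of the gene (1445271_at) stayed between 0.94 and 1.65, under the median of every array, and a gap could hardly show there. Its margin was -0.33.

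Of 10 genes of the Trim cluster list 8 were measured, and Trim12c was the 1 with a jump. The PSI-F graft of day 3 and the PSI graft of day 7, where Trim12c was highest, were with Diabetic the 3 lowest arrays in the brighter probe sets of Trim30d and Trim34a. That of Trim30d was at 2.25 and 5.07 in the PSI-F and PSI grafts of day 3, and at 4.36 and 2.54 in the PSI-F and PSI grafts of day 7. That of Trim34a was at 2.99 and 4.46 in the PSI-F and PSI grafts of day 3, and at 4.88 and 2.79 in those of day 7. Trim30a, at 7.47 and 7.29 in the PSI-F and PSI grafts of day 1, was highest on that day in both kinds and lowest in Diabetic (1.92). Trim12a, the closest relative, stayed at 1.22 or less. The genes whose levels were most like those of Trim12c lay on other chromosomes, Ncam1, a cell adhesion gene, Ddah1, which breaks down an inhibitor of nitric oxide synthase, and Fam20c, a secretory kinase (r = 0.87 each).

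Taf15, Rbm45 and Cnot6l act on RNA. Taf15 is an RNA-binding protein of the FET family that also joins the transcription factor TFIID, Rbm45 is an RNA-binding protein known from nervous tissue, and Cnot6l is a deadenylase subunit of the CCR4-NOT complex, which shortens the poly(A) tail of mRNA. Taf15 (1438130_at) was at 1.27, 4.15, 0.71 and 1.20 in the PSI-F grafts of days 1, 3, 7 and 10 and at 4.20, 1.44, 0.90 and 0.71 in the PSI grafts, against 0.99 in Diabetic and 0.75 in Control. The PSI-F graft of day 3 and the PSI graft of day 1 stood alone above the array median, with a gap of 2.71 (6.56-fold) to the others. The difference PSI-F minus PSI was -2.93 on day 1 and 2.71 on day 3.

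Its second probe set (1453504_at) stayed between 0.41 and 1.19, under the median of every array, and its margin was -0.55. Of the 3 FET genes 2 were measured. The promoter window of Taf15 is given as the other window with a match, again on the strand opposite to the gene, which here lies on the plus strand of chr11:83472858-83473157 (RefSeq, GRCm38.p6). The match begins at base 285, past the start.

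Taf15: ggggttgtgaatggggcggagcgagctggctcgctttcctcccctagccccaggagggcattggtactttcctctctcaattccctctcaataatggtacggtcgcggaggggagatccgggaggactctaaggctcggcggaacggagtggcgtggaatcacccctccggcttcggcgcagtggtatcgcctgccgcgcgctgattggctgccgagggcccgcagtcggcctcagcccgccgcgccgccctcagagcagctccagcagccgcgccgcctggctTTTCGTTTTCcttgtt

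Rbm45 was parted between the same arrays in the opposite direction. It was at 5.89, 3.71, 5.87 and 6.84 in the PSI-F grafts and at 3.74, 6.05, 6.04 and 6.09 in the PSI grafts, against 5.75 in Diabetic and 6.41 in Control. The PSI-F graft of day 3 and the PSI graft of day 1, where Taf15 was high, were the low ones, by a gap of 2.01 (4.02-fold). The difference PSI-F minus PSI was 2.15 on day 1 and -2.34 on day 3. Rbm45 has 1 probe set of its own, and none of the 13 probe sets of its 6 neighbours on chromosome 2 was parted by 1 or more. Its level was most like those of Trpm1, a cation channel (r = 0.85), Hunk, a kinase (0.78), and Dusp2, a phosphatase of MAP kinases (0.78).

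Over all 45037 probe sets, 1820 had a largest gap of at least 1, in 107 different divisions of the 10 arrays. The 10 listed genes had 8 different ones. Beside Taf15 and Rbm45, the division by the PSI-F graft of day 3 and the PSI graft of day 1 was found in both probe sets of AI662270 and in 1 probe set of Ptgs2, the inducible cyclooxygenase of prostaglandin synthesis. AI662270 lies on chromosome 11 as Taf15 does, with 16 RefSeq genes between them. Its brighter probe set (1434067_at) was at 2.97, 4.84, 2.60 and 2.83 in the PSI-F grafts and at 4.62, 2.53, 2.42 and 1.98 in the PSI grafts, against 0.97 in Diabetic and Control alike. Gaps were 1.65 and 1.45 in the 2 probe sets of AI662270 and 1.07 in Ptgs2. Of the 7 probe sets of the 6 genes nearest to Taf15, among them the chemokine genes Ccl5 and Ccl9, none was parted in this way.

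**Figure D2:**
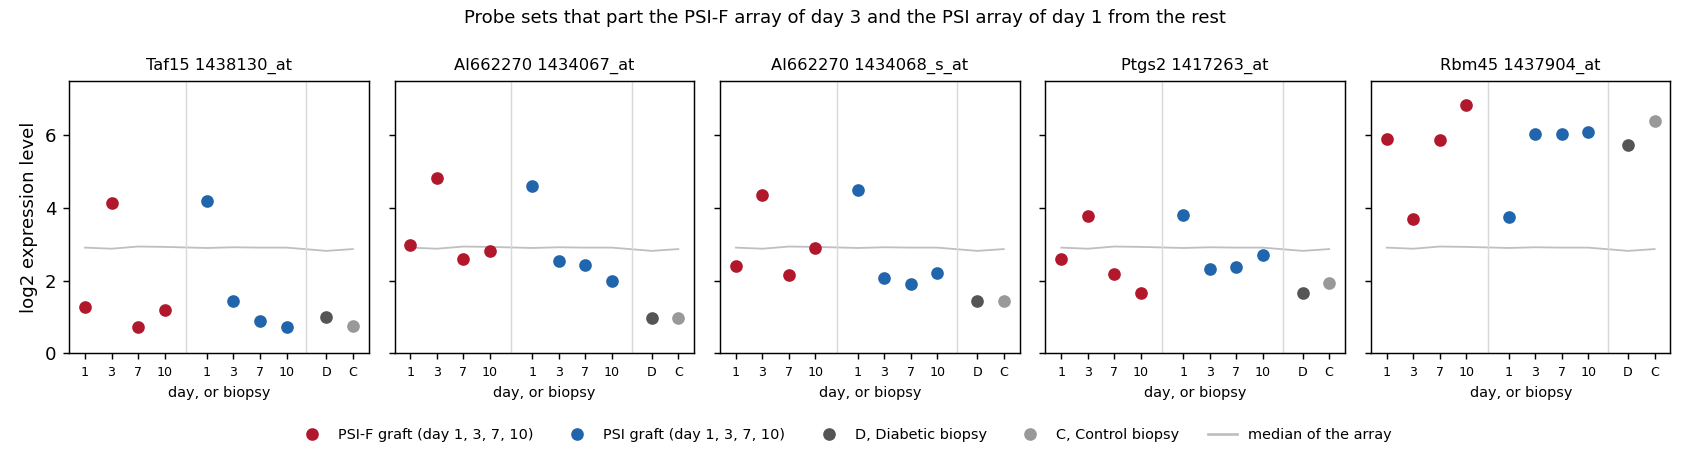
Levels (log2, vertical axis) of Taf15, AI662270, Ptgs2 and Rbm45 on the 10 arrays (horizontal axis), 1 panel for each probe set and 1 point for each array, with the array median as a grey line. Taf15, AI662270 and Ptgs2 are highest in the PSI-F graft of day 3 and the PSI graft of day 1, and Rbm45 is lowest there (3.71 and 3.74).

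Cnot6l was bright on every array. The probe set with the widest gap (1425480_at) was at 7.34, 6.57, 4.79 and 6.95 in the PSI-F grafts of days 1, 3, 7 and 10 and at 5.05, 6.59, 7.17 and 7.62 in the PSI grafts, against 7.30 in Diabetic and 5.20 in Control. The PSI-F graft of day 7, the PSI graft of day 1 and Control were the low arrays, by a gap of 1.36 to the others. The difference PSI-F minus PSI was 2.29 on day 1 and -2.38 on day 7. The 3 other probe sets, all above the array median everywhere, did not part these arrays. One of them (1434311_at) stayed between 5.51 and 6.20, with a margin of -0.29. The others ranged over 1.52 and 2.30, with margins of -1.39 and -0.88.

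None of the 10 measured CCR4-NOT genes out of 11 had a jump. The median level of the list lay between 6.0 and 6.38 on all 10 arrays. The nearest relative, Cnot6, was at 7.05 to 7.98.

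Csn3 and Ms4a4b were both highest in the PSI-F graft of day 1. Csn3 encodes kappa-casein, the milk protein that keeps casein micelles stable. It was at 3.84, 1.37, 2.62 and 3.23 in the PSI-F grafts and at 1.48, 1.38, 1.79 and 2.93 in the PSI grafts, against 2.10 in Diabetic and 3.18 in Control. The day 1 grafts differed by 2.36 (5.14-fold), but no wide gap parted the levels, with 6 arrays under the array median. The other probe set was at 0.25 to 0.62. Of the 7 casein and milk protein genes measured, the other 6 were at or under the array median everywhere, and Csn2, the beta-casein, was at 0.69 to 1.16.

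Ms4a4b, a membrane protein of T cells in the mouse, was at 3.96, 1.01, 0.74 and 2.06 in the PSI-F grafts and at 0.78, 2.24, 1.67 and 0.78 in the PSI grafts, against 0.88 in Diabetic and 1.33 in Control. A single array, that of the PSI-F graft of day 1, was above the array median. It was 9.04-fold higher than the PSI graft of the same day (log2 difference 3.18). The second probe set (1425325_at) was at 0.40 to 1.07, and at 0.46 in the PSI-F graft of day 1. The median of the T cell markers was 3.10 in the PSI-F graft of day 1 and 2.60 in the PSI graft of day 1, and that of the NK cell markers 3.27 and 2.78, over ranges of 2.60 to 3.48 and 1.85 to 3.58 in all grafts. The part of these cells in the level of Ms4a4b was not tested.

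The neighbours of Ms4a4b on chromosome 19 are other members of its family. In their brighter probe sets Ms4a4c, Ms4a6c and Ms4a6b, which are known from macrophages, were also highest in the PSI-F graft of day 1, but the PSI graft of day 1 was close behind. The brighter probe set of Ms4a4c was at 9.09 and 8.55 in these, against 3.48 in Diabetic and 3.79 in Control, and Ms4a6b (1418826_at) at 8.72 and 8.60, against 4.24 in Diabetic and 4.01 in Control. The margins of these 3 genes lay between 0.10 and 0.54 where they were above 0. The dim second probe set of Ms4a6c (1457725_at) was highest in Control (2.01), against 1.57 in the PSI-F graft of day 1. Other neighbours went another way. Ms4a7 (1424754_at) was at 8.65 in the PSI-F graft of day 7, its highest, and at 7.12 in that of day 1. The dim Ms4a1 (1423226_at) was also highest in that graft of day 7 (2.12), against 1.68 on day 1. Cmpk2, an interferon-induced kinase of the mitochondria, had the levels most like those of Ms4a4b (r = 0.80) and was at 4.20 in the PSI-F graft of day 1, against 2.44 in the PSI one.

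**Figure D3:**
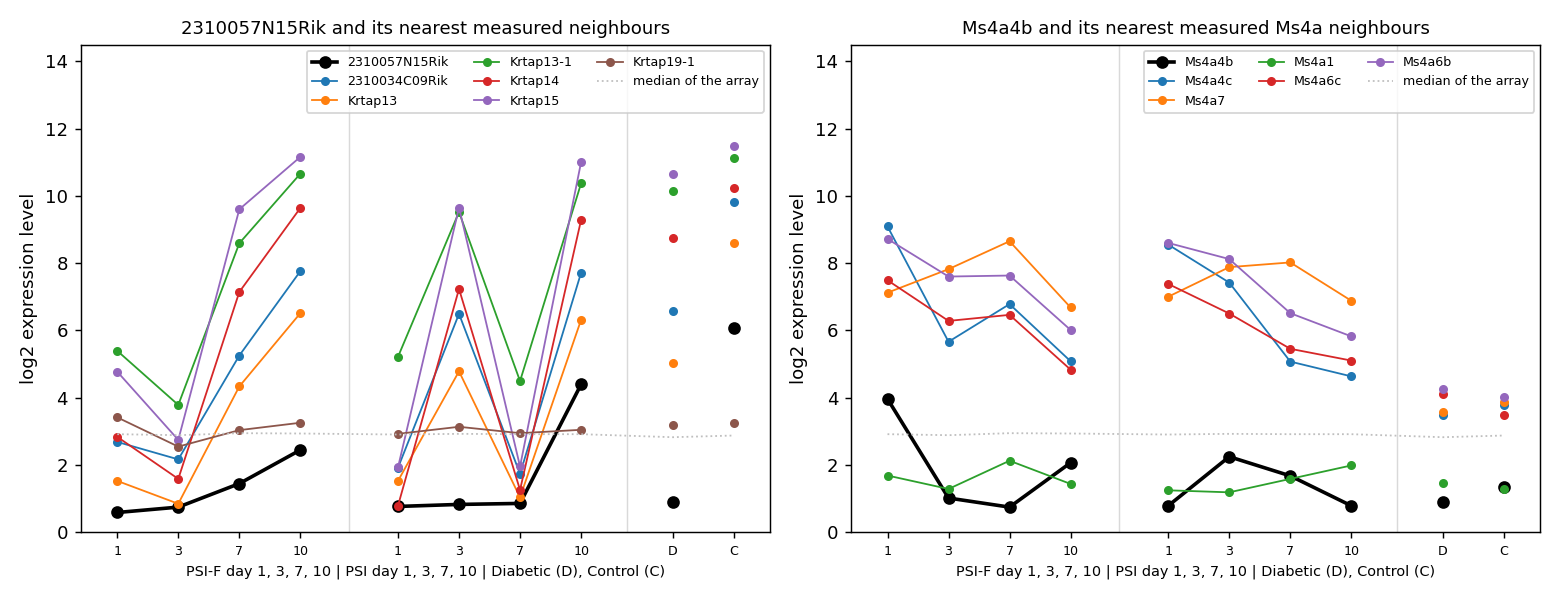
Levels (log2, vertical axis) of 2310057N15Rik (left) and Ms4a4b (right) with nearby measured genes of their clusters (brightest probe set of each) on the 10 arrays (horizontal axis), 1 point for each array, with lines that join the days of 1 kind of graft and a dotted line for the array median. Krtap15 covers a range of 9.54, and Ms4a4c is at 9.09 and 8.55 in the PSI-F and PSI grafts of day 1, where Ms4a4b is at 3.96 and 0.78.

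2310057N15Rik, for which RefSeq also lists the name Krtap13-1, lies on chromosome 16 among genes of keratin-associated proteins, which build the hair shaft with the hair keratins, and a separate probe set on the array is annotated as Krtap13-1. It was at 0.58, 0.74, 1.44 and 2.44 in the PSI-F grafts of days 1, 3, 7 and 10 and at 0.76, 0.82, 0.85 and 4.39 in the PSI grafts, against 0.88 in Diabetic and 6.08 in Control. The PSI graft of day 10 and Control were the high arrays, and Diabetic was 5.20 under Control (log2 difference -5.20).

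Of its 6 nearest measured genes, 2310034C09Rik, Krtap13, Krtap13-1, Krtap14 and Krtap15 ranged over 7.34 to 9.54, whereas Krtap19-1 stayed at 2.54 to 3.41 in the brighter of its probe sets and at 0.45 to 1.61 in the other. Krtap15 was at 4.77, 2.74, 9.60 and 11.16 in the PSI-F grafts and at 1.92, 9.65, 1.95 and 11.00 in the PSI grafts, against 10.64 in Diabetic and 11.47 in Control. Hair follicle markers (5 of 6 measured, 4 of them with a jump) had medians of 4.0, 2.49, 8.69 and 10.05 in the PSI-F grafts and 5.23, 8.87, 5.70 and 9.84 in the PSI grafts, against 9.46 in Diabetic and 10.35 in Control. In Diabetic, in the PSI graft of day 3 and in the PSI-F graft of day 7 these markers were high and 2310057N15Rik was at 0.88, 0.82 and 1.44, all under the array median. The part of hair follicles in its levels was not tested. Its levels were most like those of Serpina11, a serine protease inhibitor (r = 0.97), Kalrn, a guanine nucleotide exchange factor (0.97), and Lyg1 (0.96).

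1700020D05Rik on chromosome 19, for which no function is given here, was low on a single array. It was at 3.54, 4.86, 1.49 and 4.05 in the PSI-F grafts and at 3.83, 4.84, 4.76 and 3.94 in the PSI grafts, against 5.73 in Diabetic and 5.22 in Control. The PSI-F graft of day 7 lay 2.05 under the next lowest array and 3.27 under the PSI graft of the same day (9.64-fold lower). Among the divisions of the listed genes this one recurred most, but not alone. At a gap of at least 1, 3 other probe sets had the PSI-F graft of day 1 as the single high array, like Ms4a4b. In 12 it was the single low one. With such a gap, 28 probe sets had the PSI-F graft of day 7 as the single low array, and 18 as the single high one. Among those with a single symbol, and chosen after their values were seen, the widest gap was 1.68 in Adh7 for the 28 and 2.18 in Hbb-b2, a beta-globin gene with near-identical copies, for the 18. Hbb-b2 was at 7.09 in the PSI-F graft of day 7, against 4.91 in the PSI graft of day 7.

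The levels most like those of 1700020D05Rik were those of Spag9, a scaffold protein of JNK signaling (r = 0.89), Dhx30, an RNA helicase (0.88), and Adh7, an alcohol dehydrogenase of epithelia (0.86). Adh7 was at 2.56 in the PSI-F graft of day 7 and between 4.24 and 4.88 on all other arrays. None of the 11 probe sets of the 6 nearest genes was parted by 1 or more.

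**Figure D4:**
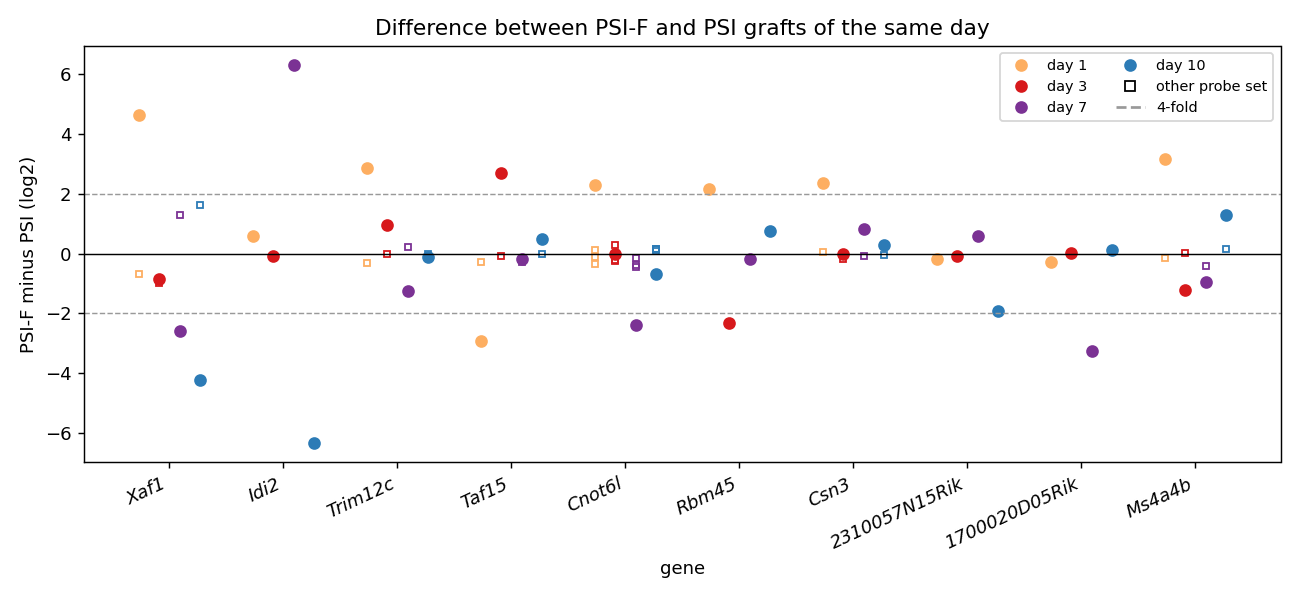
Difference PSI-F minus PSI (log2, vertical axis) of the 10 listed genes (horizontal axis) on days 1, 3, 7 and 10 (colours), 1 array for each kind and day, with circles for the probe set with the largest gap, open squares for other probe sets and dashed lines at 4-fold. Circles of Xaf1, Idi2, Taf15, Cnot6l and Rbm45 lie past both dashed lines, and no square does.

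Set side by side by day, 9 of the 10 genes were at least 4-fold apart between PSI-F and PSI on at least 1 day, all but 2310057N15Rik. Over all genes this was 192 or 1.06%. On day 1 there were 7 of the listed genes, 6 higher in PSI-F and Taf15 lower, beside 0.214% of all genes. On day 3 there were 2 (0.792% of all genes), on day 7 there were 4 (0.374%) and on day 10 there were 2 (0.143%). A set of 5, Xaf1, Idi2, Taf15, Cnot6l and Rbm45, exceeded PSI at least 4-fold in PSI-F on 1 day and lay at least 4-fold under it on another, as were 52 of all genes (0.286%). These counts follow from how the genes were listed.

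Whether a gap was seen in all probe sets of a gene could be asked for the 6 genes with more than 1 single-gene probe set. In these the margin was taken, which is the lowest level of the arrays above the gap minus the highest of those below it, and a margin of at least 1 in another probe set counted as shared. None of the 6 had a shared gap, and all 8 margins were under 0, between -2.95 and -0.20. Among all genes with a jump and more than 1 probe set, 34 of 69 had it shared by another probe set (49.3%) and 18 by every other (26.1%). With gaps of at least 1 the share was 155 of 792 (19.6%). These sets are unlike the listed genes, which were picked for jumps with no steady link to graft type or day. The 69 include Ccl9, for example, at 8.47 to 8.77 in the grafts of days 1 and 3 and at 5.87 or less elsewhere (1448898_at).

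The comparison rests on few bright readings. In Trim12c, Taf15, Csn3 and Ms4a4b the other probe set was under the median of all 10 arrays, and of these Trim12c and Taf15 are the 2 genes with both a jump and more than 1 probe set. Where another probe set reached a level of 5, in Xaf1 and Cnot6l, the gaps were 1.69 and 1.36. Of all jump genes with such a bright second reading 33 of 56 had the jump shared (58.9%). For Idi2, Rbm45, 2310057N15Rik and 1700020D05Rik the question could not be put to the array. No sequence of the probes or of the animals was used, and a sequence variant as the source of a gap was not tested.

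**Figure D5:**
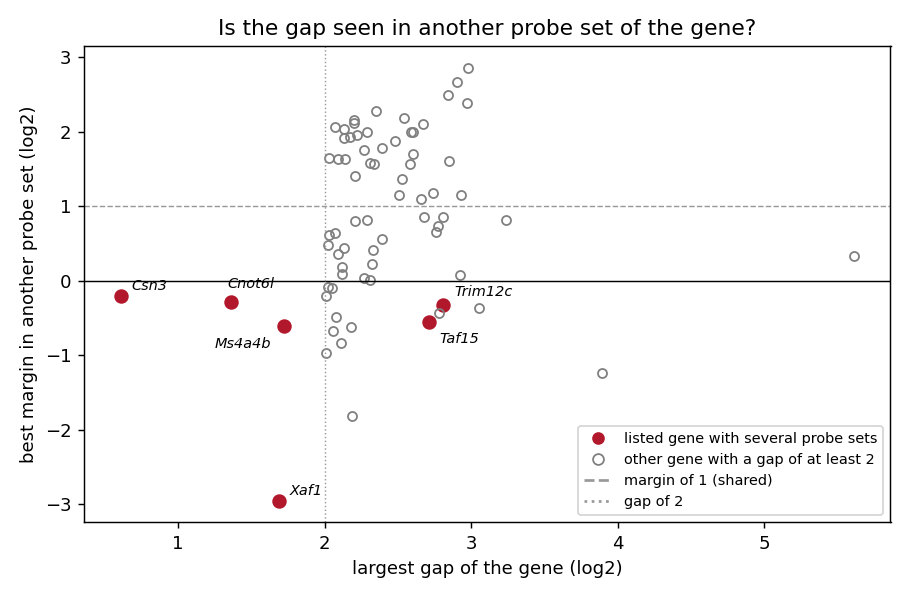
Largest gap of a gene (log2, horizontal axis) against the best margin in another of its probe sets (log2, vertical axis), for the 6 listed genes with several probe sets (filled) and the other genes with a gap of at least 2 (open). All 6 lie under 0, and Xaf1 is lowest at -2.95, while 34 of 69 jump genes lie at or above the dashed line at 1.

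Nearby genes were read with the same margin, but here the opposite direction counted too, which it did not for a gene's own probe sets. Of 106 probe sets of the 60 genes nearest to the listed genes, none had a margin of at least 1 for the listed gene's division of the arrays, and 11 had one above 0, of which 6 belonged to the surroundings of Ms4a4b. Over all 45037 probe sets, the most frequent of these divisions was found, at a gap of at least 1, in 28 and reversed in 18. Nothing is therefore read from the lack of such margins nearby.

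With the days taken as replicates, limma across 45037 probe sets called none between PSI-F and PSI grafts when day was a block (0.0%), and 2749 had an unadjusted p under 0.05 (6.1%). Among the 18 probe sets of the listed genes 1 did, that of Csn3 (log2 difference 0.87 ± 0.34, SE, adjusted p = 0.751). For days 7 and 10 minus days 1 and 3, 189 probe sets were called (0.42%), none of them of the listed genes, of which 3 of 18 had an unadjusted p under 0.05, beside 15.3% of all probe sets. As these levels chose the genes, the counts are a description. Idi2 illustrates the spread, with 0.12 ± 1.61 (SE) for PSI-F minus PSI.

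For the 8 grafts minus both biopsies limma called 975 probe sets (2.16%), of which 2 belonged to the listed genes, and neither was the one with the gap. An unadjusted p under 0.05 was found in 6 of the 18 probe sets of the listed genes, beside 7997 of all 45037. Among the 6 were the probe sets with the gap of Idi2 (log2 difference -4.36 ± 1.86, SE, adjusted p = 0.249) and 1700020D05Rik (-1.56 ± 0.70, adjusted p = 0.277). The dim probe set of Trim12c (1445271_at) was at 1.32 to 1.65 in the grafts, against 0.94 in Diabetic and 1.05 in Control (log2 difference 0.51 ± 0.11, SE, adjusted p = 0.0391), all under the array medians. The probe set 1451723_at of Cnot6l was at 3.68 to 4.64 in the grafts, against 5.98 in Diabetic and 4.95 in Control (log2 difference -1.20 ± 0.27, SE, adjusted p = 0.0476). The fit took Diabetic and Control, which are different conditions, as replicates of a biopsy, and pooled both kinds of graft. When 1 graft was left out, 536 to 1038 probe sets were called over the whole table. Leaving out a biopsy leaves 1 array on that side, and the count then fell outside this range for either biopsy. Both calls here depended on which arrays were kept. None was left without Diabetic or without any 1 of the PSI grafts or the PSI-F grafts of days 3, 7 and 10, 1 was left without the PSI-F graft of day 1, and 2 were left without Control.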

How the data were processed

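Gene expression was measured on 10 Affymetrix mouse arrays, 1 for each condition. The authors deposited log2 levels from RMA, which corrects the background, quantile-normalizes the probes and summarises each probe set. R 2.15.0 and affy 1.36.0 are named in the submitters' processing notes. Quantile normalization gives all arrays nearly the same distribution, so a general shift between arrays would not be seen.

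Genes were named from the platform annotation, through probe sets with a single symbol. Of 45101 probe sets, 64 controls were left out, 34945 carried 1 symbol and 932 several. Every column of the table belongs to a sample used here. Order, gene neighbours and promoter windows come from RefSeq tables (GRCm38.p6). All 10 genes were matched there. The array files name no genome build, so coordinates are printed for the RefSeq promoter windows alone, and other positions as chromosome and number of genes between.

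The probe set with the largest gap stood for a gene. Named beside the listed genes were the 3 most alike by Pearson correlation over 10 arrays among probe sets ranging over at least 2, the 3 nearest measured genes on each side, and members of gene lists. The members and lists were chosen with earlier results of these data known. Differences over several arrays were fitted with limma 3.58.1 in R 4.3.3 (lmFit, eBayes, Benjamini-Hochberg, calls at an adjusted p under 0.05). Days served as replicates there, so the spread also holds what changed with time. In grafts minus biopsies both kinds of graft were pooled, and so were Diabetic and Control. Fits were tested on simulated data. Gaps and margins were computed with pandas 2.3.3 and numpy 2.4.6 in Python 3.11.15, and plots drawn with matplotlib 3.10.9. With 1 array for each condition no error of a single level can be given, and the number of arrays limits the precision. Alternatives were cyclic loess, a shift to one median, other gap, margin and fold thresholds, a filter on dim probe sets, other choices of probe set, the grafts alone, an intensity trend, no block for the day and leaving out arrays or days.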

Additional observations from a re-analysis of the deposited data

Results flagged for a closer look

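A group of 5 genes stood out because PSI-F was at least 4-fold higher than PSI on 1 day and at least 4-fold lower on another, with 1 array on each side, so that the difference between the days was not tested. The log2 differences PSI-F minus PSI were 4.65 on day 1 and -4.22 on day 10 for Xaf1, 6.32 on day 7 and -6.36 on day 10 for Idi2, 2.29 on day 1 and -2.38 on day 7 for Cnot6l, and 2.15 on day 1 and -2.34 on day 3 for Rbm45. For Taf15 they were -2.93 on day 1 and 2.71 on day 3. The 5 genes were listed for such switches, and 52 of 18193 genes (0.286%) showed them.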

How the results depend on the processing

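The fit of PSI-F minus PSI paired both kinds by day, and without that block it likewise called 0 probe sets. The number of listed genes with a jump was 5. It was 9 with a gap of at least 1, and averaging a gene's probe sets left 3, Idi2, Rbm45 and 1700020D05Rik. The number at least 4-fold apart on a day, 9, was 3 after such averaging, for the same 3 genes. Each of these 3 has 1 probe set of its own, so averaging could not change its levels. Cyclic loess left 4 jumps, without 1700020D05Rik, and moved no level of a listed gene by more than 0.17. Asking for a level of 5 left 4, without Taf15. No gap became shared under a margin above 0, cyclic loess or the filter on dim probe sets. The calls for grafts minus biopsies were between 0 and 2 when arrays were left out in turn. Levels near the array medians (2.82 to 2.94) limit what the second probe sets can show.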

Other observations

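The widest gap of any gene, chosen after the values were seen, was 5.61 in a probe set of H2-D1 (1450170_x_at), a class I gene of the major histocompatibility complex. It was at 9.31, 2.85, 2.85 and 3.12 in the PSI-F grafts of days 1, 3, 7 and 10 and at 9.27, 9.41, 9.23 and 9.43 in the PSI grafts, against 3.62 in Diabetic and 3.12 in Control. The other 8 probe sets of H2-D1 had gaps of 0.15 to 0.33, and the best margin among them for this division in the same direction was 0.33. In the opposite direction, 1426324_at was at 7.54 to 7.86 on the arrays where 1450170_x_at was low. Where 1450170_x_at was high, 1426324_at was at 6.82 to 7.45. Class I genes share long stretches of near-identical sequence, and the suffix x of this probe set marks probes that also match other transcripts.

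Pdxdc1 (1419327_at), also chosen after its values were seen, was at 5.13 in the PSI-F graft of day 3, 5.06 in the PSI graft of day 10 and 5.05 in Control, and at 2.0 or less on the other 7 arrays. Its probe set 1452705_at was lowest on the same 3 arrays, at 5.92, 5.87 and 5.90, against 6.52 to 6.93 on the others. The probe set 1428200_a_at was also lowest there, at 3.43, 3.13 and 3.40, against 3.53 to 4.05. In 1436372_a_at these arrays were not apart, at 4.99, 4.91 and 4.93, against 4.67 to 5.28.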
